A study of Homo sapiens with 14 samples.

Results

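The V1 libraries of a PARS-seq experiment were examined base by base, in human cells in which the RNA-editing enzyme ADAR1 had been silenced and in control cells. A transcript was taken up when it was listed in all 4 V1 tables, which are 2 control and 2 ADAR knockdown (KD) tables, with at least 257 read starts in each of them. This rule kept 10305 of the 25132 transcripts listed in any of the 8 PARS-seq tables, and 9334 others were listed in all 4 V1 tables with fewer read starts in at least 1 library. Near the minimum, 303 kept transcripts had 257 to 300 read starts in their smallest library, and 403 transcripts left out had between 200 and that minimum. Of the kept transcripts, 5731 are absent from the short table of S1 control replicate 1, so that a comparison of both nucleases leaves them out. They were 29 to 205012 bases long, with a median of 3053.

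RNase V1 cuts RNA where bases are paired or stacked, and S1 nuclease cuts where they are unpaired. In PARS-seq, purified poly-A RNA is folded in the test tube, cut and sequenced, so that the first base of each read marks a cut. ADAR1 converts adenosine to inosine in double-stranded RNA, most often in inverted Alu repeats of introns and 3′ UTRs, and inosine pairs more weakly with uridine than adenosine does. The enzyme also keeps cellular double-stranded RNA from being sensed as foreign. The number of V1 read starts on a transcript depends on how much of the RNA is present and on how often V1 cuts it. In bulk libraries such as these, fewer molecules and fewer cuts per molecule cannot be told apart from read starts alone.

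The series holds 14 samples of cells labelled HepG2, a line from a human liver tumour, and the groups used here are 2 V1 libraries each of a scrambled siRNA (control) and of siADAR1 (ADAR_KD), with 4 S1 libraries, 2 RNA-seq and 4 Ribo-seq samples beside them. Silencing lasted 48 h, and the labels describe the transfection as stable. ADAR, the gene of the targeted enzyme, had 54.8 RPKM (reads per kilobase of transcript, scaled to 1000000 reads) in control RNA-seq and 15.4 RPKM in KD RNA-seq, a single library each. In Ribo-seq it had 43.6 and 55.5 RPKM in the control and 8.73 and 44.03 RPKM in the KD samples, so the drop was small in Ribo-seq replicate 2. The authors' RPKM means over an S1 and a V1 library, each over 1 replicate, were 40.7 and 46.9 in control against 15.1 and 15.1 in KD. The markers of the labelled cell type were all but absent. The 10 hepatocyte markers summed to 0.147 RPKM in control and 0.126 RPKM in KD RNA-seq, with 0 of 10 at 1 RPKM or more and AFP, APOB, APOH, FGB and TTR listed at 0. The 3 measured fibroblast and stellate cell markers summed to 57.8 and 42.9 RPKM, of which COL1A1, a collagen chain, made up 54.7 and 40.4 RPKM. The other 2 were low, with COL1A2, also a collagen chain, at 0.123 and 0.0122 RPKM and DCN at 2.9 and 2.5 RPKM. The 4 leukocyte markers summed to 0.325 and 0.497 RPKM and the 3 endothelial markers to 0.620 and 0.525 RPKM. The label is therefore used as a name only, and the part that the identity of the cells has in the results was not tested.

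The 4 V1 tables held 113273927 and 116443053 read starts in control replicates 1 and 2, and 214584779 and 122526174 in KD replicates 1 and 2. The median transcript had 2423, 2251, 3362 and 2406 read starts in the same order. A single transcript, uc022brd.2, took 34.8% and 42.5% of the read starts of the 10305 kept transcripts in control against 54.9% and 42.7% in KD, so read starts were scaled by TMM (a trimmed mean of log ratios between libraries) and not by the library total. The replicate 2 libraries of both conditions were shifted towards the 3′ end, and this shift is given below beside the positions. The study calls the replicates biological, but no label names separate cultures, and p-values measure the spread between these libraries.

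Read starts per transcript changed in both directions. With limma and a Benjamini-Hochberg adjusted p under 0.05, 578 transcripts were higher (5.61%) and 693 were lower in KD (6.72%), together 12.3% of the 10305 tested, and the median difference was 0.02 on the log2 scale. The groups did not overlap for 59.4% of all transcripts, and 90% of the differences lay between -0.85 and 0.79. The balance depends on the scaling, since the library total gave 152 higher and 808 lower, with a median difference of -0.20. Without V1 control replicate 2, 1135 transcripts were higher and 1191 lower. With a term for the replicate number in the model, 2664 were higher and 2443 lower, together 49.6%. An exact permutation test of 2 against 2 libraries cannot go below p = 0.33, so calls rest on the spread that limma shares between transcripts.

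**Figure D1:**
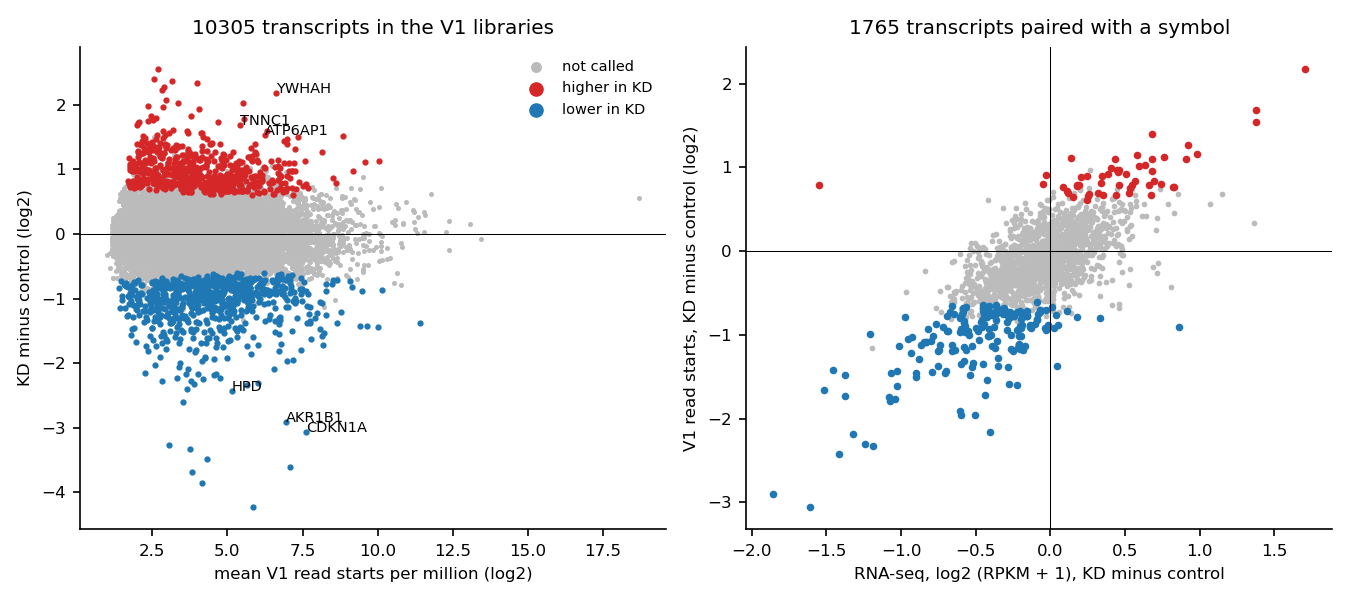
Left, each point is 1 of 10305 transcripts, with the mean log2 CPM (V1 read starts per 1000000 TMM-scaled read starts) on the x axis and the log2 difference, KD minus control, on the y axis. Right, the V1 difference of 1765 transcripts with a symbol is plotted against the difference in RNA-seq, log2 (RPKM + 1). The 578 higher transcripts are red and the 693 lower ones blue, and most coloured points on the right lie in the quadrants where both differences have the same sign.

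Transcripts that only the V1 rule takes up and the others differed in direction. Among the 5752 members below that minimum in at least 1 S1 library, 450 were higher and 245 lower, with a median log2 difference of 0.13 and a median length of 3795 bases. Among the 4553 with at least 257 read starts in all 8 libraries, 128 were higher and 448 lower, with a median log2 difference of -0.11 and a median length of 2253 bases. The called shares were close, at 12.1% and 12.7%. The higher transcripts had a median length of 4014 bases and the lower ones of 2614 bases. The split also selects on control read starts, since 5731 members are absent from the table of S1 control replicate 1. The median read starts in control were 1239.5 for the 5752 members and 5777.5 for the 4553. Split and direction are therefore not independent. Whether length, depth or the gene content of both sets goes with the direction was not tested.

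Gene symbols could be paired with 1997 of the transcripts, the part at hand of a list that the study had selected in these same libraries for a ratio of paired bases that differed between KD and control in the same direction in both replicates. It is not a random sample of the members, and 61 of its transcripts were higher (3.05%) and 195 lower (9.76%), together 12.8%, with a median log2 difference of -0.13. The gene lists were drawn from these transcripts, so these shares are their background. The 3 with the largest rises and falls were named by rule. YWHAH, which encodes a 14-3-3 signalling adaptor, had 37.5 and 56.6 CPM (V1 read starts per 1000000 TMM-scaled read starts) in control against 162 and 268 in KD. Both KD libraries were above both control libraries, and the log2 difference was 2.18 ± 0.29 (SE, limma adjusted p = 0.00627). TNNC1, a calcium-binding troponin subunit of muscle, went from 26.2 and 21.2 to 82.0 and 69.98 CPM, with a log2 difference of 1.68 ± 0.19 (limma adjusted p = 0.00342). ATP6AP1, an accessory subunit of the proton pump that acidifies lysosomes, went from 43.98 and 45.6 to 108 and 156.5 CPM, with a log2 difference of 1.54 ± 0.21 (limma adjusted p = 0.00654). For each of these 3 transcripts the lowest KD library lay above the highest control library.

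Among transcripts with a symbol, CDKN1A had the largest fall. It encodes the cell-cycle inhibitor p21, and it had 574 and 557 CPM in control against 68.6 and 67.2 in KD, with a log2 difference of -3.06 ± 0.16 (limma adjusted p = 0.000312). AKR1B1, the aldose reductase, had 347 and 333 CPM in control against 39.6 and 52.3 in KD, a log2 difference of -2.90 ± 0.19 (limma adjusted p = 0.00073). HPD, an enzyme of tyrosine breakdown, had 81.5 in both control libraries and 13.1 and 17.5 in KD, a log2 difference of -2.43 ± 0.19 (limma adjusted p = 0.00134). Control and KD libraries were far apart for all 3 transcripts. The transcripts without a symbol here were taken by the smallest limma p-value per direction. Of these, uc001iht.3 fell from 261 and 242 to 11.1 and 16.2 CPM and uc003hic.2 from 64.5 and 72.1 to 4.60 and 4.80. In the other direction, uc002ejy.3 rose from 2.56 and 2.72 to 15.8 and 15.2 CPM, and uc002czx.3 from 6.60 and 7.37 to 35.02 and 35.4.

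F11R, PSMB2 and PAICS, 3 of the transcripts that the study followed gene by gene, were not called. With a replicate term in the model PSMB2 was (limma adjusted p = 0.000349). F11R, which encodes the junctional adhesion molecule JAM-A, had 42.8 and 39.8 CPM in control against 39.2 and 41.5 in KD, so that the groups overlapped. PSMB2, a proteasome subunit, had 67.1 and 77.5 in control against 46.8 and 56.3 in KD, with a log2 difference of -0.49 ± 0.18 (limma adjusted p = 0.112). PAICS, an enzyme of purine synthesis, had 125 and 126 in control against 137.9 and 139.5 in KD, with a log2 difference of 0.15 ± 0.16 (limma adjusted p = 0.567). The groups did not overlap for PSMB2 and PAICS, as for 59.4% of all transcripts.

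The members with a symbol were grouped by function. Of 14 proteasome subunits 4 were lower (28.6%, against 9.76% of all transcripts with a symbol) and 0 higher, with a median log2 difference of -0.50 and 13 of 14 below 0. The 4 were PSMD11 of the regulatory particle (68.1 and 81.5 against 33.9 and 37.2 CPM, log2 -1.07), PSMB6, a catalytic core subunit (log2 -0.78), PSMB10 of the immunoproteasome (log2 -0.73) and PSMA3, an alpha ring subunit (log2 -0.72). PSMB10 was close to the threshold (limma adjusted p = 0.0490). Among 35 mitochondrial ribosomal proteins 5 were lower (14.3%, not far above the 9.76%) and 0 higher, with a median of -0.16, namely MRPL40 (log2 -1.02), MRPL49 (-0.75), MRPL42 (-0.73), MRPS7 (-0.73) and MRPL53 (-0.68). The 35 cytosolic ribosomal proteins included 0 called transcripts by limma and had a median of -0.05, and the 36 subunits of oxidative phosphorylation included 0 called transcripts with a median of -0.25 and 31 of 36 below 0. Several of these calls needed all 4 libraries. MRPL40, MRPL42, MRPS7, MRPL53 and PSMB10 were not called without V1 control replicate 1, MRPL49, MRPS7, MRPL53, PSMA3, PSMB6 and PSMB10 without V1 KD replicate 1, and MRPL42, MRPS7, MRPL53, PSMA3 and PSMB10 without V1 KD replicate 2, with limma adjusted p from 0.0617 to 0.201. MRPL53 was not called with the library total as scaling (limma adjusted p = 0.0531), and MRPL53 and PSMB10 were not called with that total taken without its most covered transcript (0.0515 and 0.0598). With a replicate term in the model, 12 of 14 proteasome subunits were lower and 0 higher. Of the mitochondrial ribosomal proteins 14 were then lower and 2 higher, and of the oxidative phosphorylation subunits 16 and 1. Over all 10305 transcripts that term gave 2443 lower and 2664 higher. The median over all 10305 transcripts was 0.02 and over the 1997 with a symbol -0.13.

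As a list, chaperones and folding enzymes lay near the other transcripts with a symbol, and single members fell far. Of 28 members 4 were lower (14.3% against 9.76%) and 0 higher, with a median of -0.14 against -0.13. PPIB, a proline isomerase of the endoplasmic reticulum, had 126 and 102 CPM in control against 21.8 and 23.2 in KD (log2 -2.33). DNAJB4, a cochaperone with a J domain, had 298 and 270 in control against 82.9 and 64.5 in KD (log2 -1.96). HSPB8, a small heat shock protein, had 51.8 and 50.1 against 20.2 and 21.4 (log2 -1.29), and PPIF, the mitochondrial cyclophilin, had 105 and 152 against 56.3 and 79.6 (log2 -0.92). In each of the 4 the highest KD library was below the lowest control library. PPIF was not called without V1 KD replicate 1 (limma adjusted p = 0.11) or with the library total without the most covered transcript (0.0633).

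Single splicing factors and a synthetase rose. Of 18 splicing factors and snRNP proteins 2 were higher (11.1%, against 3.05% of all transcripts with a symbol) and 0 lower, both of the hnRNP U-like family. HNRNPUL1 had 73.6 and 88.2 CPM in control against 152 and 196 in KD (log2 1.10), and HNRNPUL2 had 88.7 and 116 in control against 173 and 230 in KD (log2 0.97). WARS, the tryptophanyl-tRNA synthetase, was the 1 called member of 6 aminoacyl-tRNA synthetases, with 99.9 and 101.1 in control against 191 and 242 in KD (log2 1.10). Of 16 translation factors, EIF3F of initiation factor complex eIF3 was higher (log2 0.96) and EIF2B1, a subunit of the exchange factor eIF2B, was lower (log2 -0.79), or 12.5% called against 12.8%. These counts are of 1 or 2 transcripts a list. The calls of HNRNPUL1, HNRNPUL2, WARS and EIF3F were lost with the library total as scaling (limma adjusted p = 0.0739, 0.155, 0.0793 and 0.152). HNRNPUL2 was not called without V1 KD replicate 2 (0.0592), nor EIF2B1 without either KD library (0.0841 and 0.0613).

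Lists that bear on ADAR1 were small. The study lists editing sites by 3′ UTR for those whose V1 and S1 profiles differed between KD and control in these same libraries. Of the 23 transcripts that the study lists for edited 3′ UTRs, chosen on its own samples, 2 were higher and 4 lower, together 26.1% against 12.8% of all transcripts with a symbol, with a median of -0.24. PGRMC2, a heme-binding membrane protein, had 29.8 and 36.9 CPM in control against 56.4 and 70.3 in KD (log2 0.93), and SFXN4, a mitochondrial sideroflexin, had 12.5 and 13.2 against 21.4 and 26.7 (log2 0.90). With the library total as scaling these 2 were not called (limma adjusted p = 0.171 and 0.196), and neither were they without V1 KD replicate 2 (0.0644 and 0.116). MPC2, a subunit of the mitochondrial pyruvate carrier, fell from 42.1 and 33.02 to 17.2 and 13.3 (log2 -1.30), TXNDC15 by 1.18, ACAT2, a cytosolic thiolase, by 1.16 and MRPS7 by 0.73 on the log2 scale. Of 14 genes of the interferon response and of double-stranded RNA sensing 2 were lower (14.3% against 9.76%) and 0 higher, with a median of -0.28, namely B2M, the light chain of MHC class I, which had 494 and 367 in control against 275 and 194 in KD (log2 -0.88), and PSMB10. B2M and PSMB10 were not called without V1 control replicate 1 (limma adjusted p = 0.0965 and 0.154) or without V1 KD replicate 2 (limma adjusted p = 0.191 and 0.0816), nor with the library total without the most covered transcript (limma adjusted p = 0.0604 and 0.0598) or with no minimum of read starts (limma adjusted p = 0.0589 and 0.0617). Of 6 double-stranded RNA-binding proteins, 0 were called by limma, with all 6 above 0 and a median of 0.26.

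**Figure D2:**
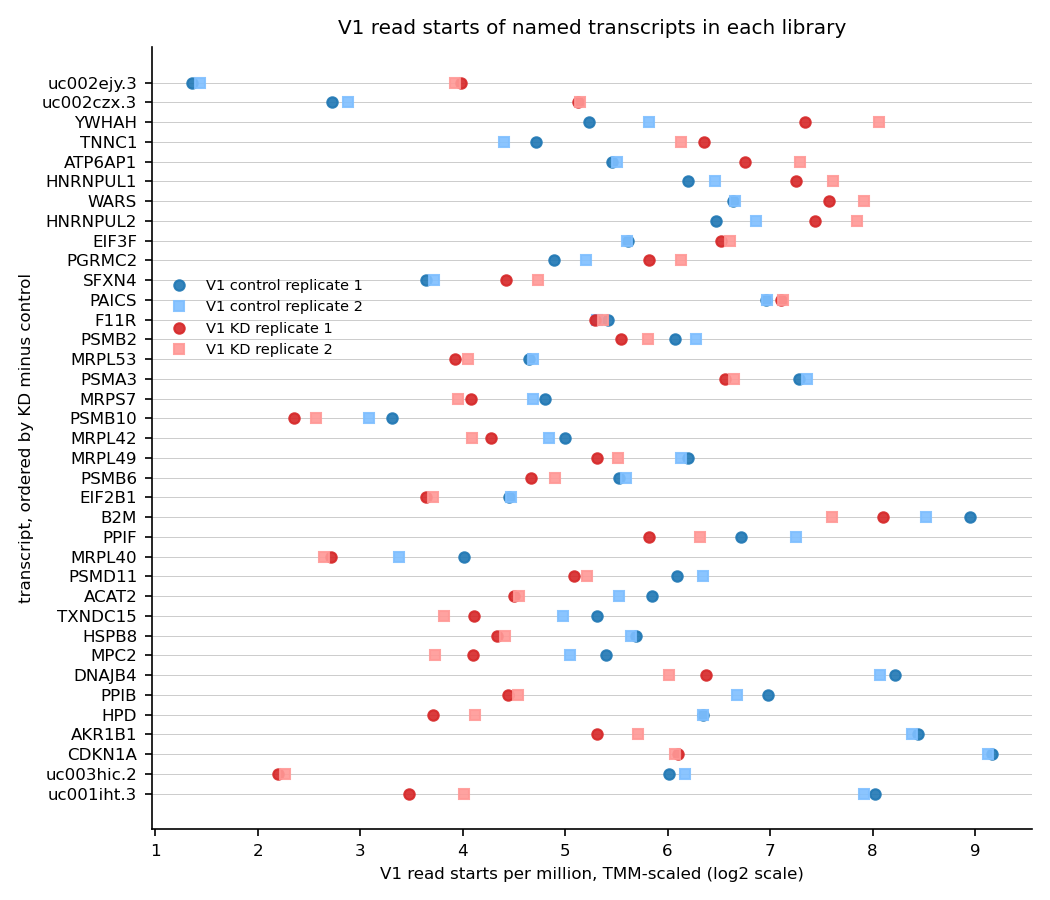
CPM on a log2 scale (x axis) in each of the 4 libraries (y axis, transcripts ordered by KD minus control). Shown are the transcripts named for read starts, F11R, PSMB2 and PAICS, and the called members of the gene lists. Control libraries are blue and KD libraries red, with circles for replicate 1 and squares for replicate 2. CDKN1A lies at 9.17 and 9.12 in control against 6.10 and 6.07 in KD, and F11R is the transcript whose libraries overlap.

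The V1 differences were set beside the RNA-seq and Ribo-seq values of the same genes. Over 1765 transcripts with a symbol and a mean RNA-seq level of at least 1 RPKM, the V1 difference and the RNA-seq difference in log2 (RPKM + 1) had a Pearson's r of 0.697 and a Spearman's rho of 0.645 across genes, which are not independent replicates. With Ribo-seq, r was 0.491. Of the 52 higher transcripts in this set, 49 were above 0 in RNA-seq and 51 in Ribo-seq. Of the 181 lower ones, 172 were below 0 in RNA-seq and 137 in Ribo-seq. Of the 1532 transcripts that were not called, 924 were below and 608 above 0 in RNA-seq, and 486 were below and 1046 above 0 in Ribo-seq. CDKN1A had 172 RPKM in control and 55.6 RPKM in KD RNA-seq, AKR1B1 had 296 and 80.9 RPKM, and YWHAH had 32.7 and 109 RPKM. B2M and PPIF, both lower in V1, had RNA-seq levels of 403 and 417 RPKM and of 64.0 and 65.2 RPKM. RNA-seq has 1 library per condition, so none of these differences has a replicate check.

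The position of read starts along transcripts differed between replicate numbers more than between conditions. Mean position was taken as the average place of the read starts, from 0% at the 5′ end to 100% at the 3′ end, and its median over transcripts was 46.95% and 52.6% in control against 48.5% and 52.8% in KD. With limma, 0 of 10305 transcripts were called (0%), and 60 had an unadjusted p under 0.05 (0.582%), 52 of them with read starts further 3′ in KD and 8 further 5′. This direction rested on single libraries, with 16 further 3′ and 69 further 5′ without V1 control replicate 1, 9 and 9 without V1 KD replicate 2, 36 and 3 without V1 KD replicate 1, and 390 and 8 without V1 control replicate 2. Same-numbered libraries shared deviations from their group means (correlation 0.715), which the model without a replicate term leaves in the spread. With such a term, 80 transcripts were further 3′ and 10 further 5′. The count of 0 does not show that positions were unchanged. The last 200 bases of transcripts of at least 1000 bases held a median of 1.21% and 2.42% of the read starts in control against 1.56% and 2.46% in KD. In that measure both replicate 2 libraries lay above both replicate 1 libraries. The middle 50% of the differences in mean position ran from -0.07 to 1.79 percentage points.

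**Figure D3:**
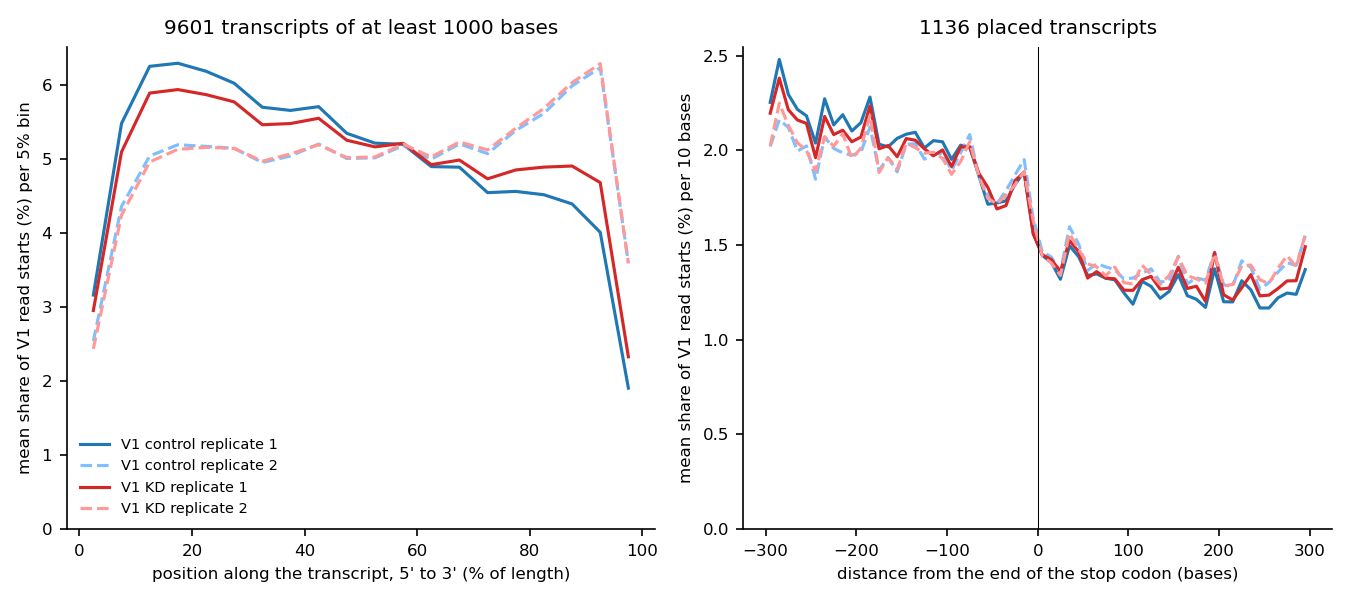
Left, the mean share of a transcript's V1 read starts (y axis, %) in bins of 5% of its length (x axis), over 9601 transcripts of at least 1000 bases. Right, the share per 10 bases around the end of the stop codon over 1136 transcripts whose coding region could be placed. Control lines are blue, KD lines red, and replicate 2 is dashed, and both replicate 2 lines are the higher ones in the last bins, with 3.60% and 3.59% in the last bin against 1.91% and 2.33% in replicate 1.

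Individual transcripts showed larger shifts that were not called with all 4 libraries and no replicate term. CD47, a surface protein that signals to macrophages not to engulf a cell, had its mean position at 32.7% and 42.7% in control and at 53.04% and 54.7% in KD, a difference of 16.2 ± 3.94 points (SE, limma unadjusted p = 0.00621, adjusted p = 1.00). PSMB10 was at 46.7% and 55.3% in control and at 58.6% and 65.8% in KD, and HSPA13, a chaperone of the HSP70 family, at 31.8% and 37.2% in control and at 41.6% and 46.8% in KD. The KD libraries were further 3′ than both control libraries for all 3, and the groups did not overlap for 9.95% of all transcripts. The transcript uc010buo.1, without a symbol here, moved further, from 64.8% and 72.6% to 87.9% and 89.8%, and uc003ivc.2 from 37.6% and 38.0% to 50.2% and 56.4%. In the other direction, ZC3HAV1, the zinc finger antiviral protein, went from 46.6% and 48.4% to 41.6% and 44.2%, SLC25A37, a mitochondrial iron importer, fell by 4.01 points and TRIM44, a TRIM family protein, by 3.55 points. Larger falls were those of uc001utu.3 (66.0% and 76.3% to 44.1% and 60.0%) and uc021omd.1 (53.7% and 46.3% to 38.6% and 38.5%), neither of them called. Some of these calls turned on 1 library. Without V1 control replicate 2, CD47, uc010buo.1 and uc003ivc.2 were called (limma adjusted p = 0.0135, 0.0061 and 0.0407), and uc001utu.3 was called without V1 control replicate 1 or without V1 KD replicate 2 (limma adjusted p = 3.94e-07 and 0.00225).

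The spread of read starts over bases was taken as the number of different bases reached when 1 fixed number of read starts, the same for each transcript and just under the minimum of the rule, is drawn. The median was 170 and 164 bases in control and 167 and 166 bases in KD. With limma, 1 of 10305 transcripts was lower in KD (0.0097%) and 0 were higher, while 303 had an unadjusted p under 0.05 (2.94%), 143 of them higher and 160 lower. The direction of these turned on the control libraries, with 374 higher and 85 lower without V1 control replicate 1, and 172 higher and 436 lower without V1 control replicate 2. Without V1 KD replicate 2 they were 65 and 120. The groups did not overlap for 26.9% of transcripts. The called transcript was again uc010buo.1, with 91.8 and 79.6 bases in control against 34.8 and 33.2 in KD (log2 -1.33 ± 0.07, limma adjusted p = 0.0475). Its read starts were thus concentrated on fewer bases in both KD libraries. In the other direction, uc001utu.3 went from 34.1 and 36.2 to 85.4 and 67.7 bases and uc002mds.4 from 16.8 and 19.3 to 29.6 and 30.4. Neither of these was called (limma adjusted p = 0.809 and 0.732), but both were when each transcript was rarefied to its smallest library (1.04e-13 and 2.31e-07) and without V1 KD replicate 2 (0.0228 and 0.0235), and uc002mds.4 also without V1 KD replicate 1 (0.0141). The call of uc010buo.1 did not hold with the inverse Simpson index (log2 -0.88, limma adjusted p = 1.00). Nor did it hold without the most covered base of each transcript (log2 -1.055, limma adjusted p = 0.246) or without the mean trend in limma (log2 -1.33, adjusted p = 0.232). Among named transcripts, SLC25A37 reached 94.9 and 98.7 bases in control against 107 and 111 in KD, UBE2L3, a ubiquitin-conjugating enzyme, 136 and 147 against 154 and 163, and CHCHD7, a small mitochondrial protein, 142 and 135 against 147 and 157. KRT10, a keratin, reached 139 and 138.3 bases in control against 118 and 133 in KD, and KPNA3, an importin, 175 and 183 against 164 and 160. PSMB2 reached 167 and 172 bases in control against 181 and 182 in KD. None of these named transcripts was called without a replicate term.

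Transcripts were then divided into windows of 50 bases, each given as its share of the read starts of its own transcript, so that the amount of RNA drops out. Of 304035 windows with a mean of at least 20 read starts, 0 were called with limma (0%), and 3753 had an unadjusted p under 0.05, or 1.23%. This share was 3% without V1 control replicate 1, 5.04% without V1 control replicate 2 and 2.02% without V1 KD replicate 1. With a replicate term in the model, 497 windows were higher and 282 lower, so the count of 0 does not show that shares were unchanged. The groups did not overlap in 24% of windows. Among transcripts with a symbol, those with most windows under 0.05 were CCT6A (18 of 52), TMEM189-UBE2V1 (16 of 52), CD47 (14 of 48), LIMCH1 (11 of 104) and HSPA13 (10 of 46). Windows of 1 transcript are shares of the same total and are not independent. The stretches described next were drawn after their values were seen, and are given as values without a test.

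CCT6A, a subunit of the TRiC chaperonin that folds actin and tubulin, had 3 higher and 15 lower windows. It lies on chr7:56119458-56131682 (hg19, plus strand). Bases 1 to 1760, the 5′ UTR and the coding region, held 57.8% and 46.2% of its read starts in control against 40.5% and 33.5% in KD. Bases 2151 to 2300 in the 3′ UTR held 16.5% and 23.2% in control against 29.1% and 34.9% in KD. Both KD libraries were beyond both control libraries in each stretch, and within each condition replicate 2 was shifted further 3′.

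CD47 had 7 higher and 7 lower windows. Bases 1 to 1152, up to the end of the coding region, held 62.4% and 52.96% in control against 34.96% and 35.7% in KD, whereas bases 4251 to 5050 in the 3′ UTR held 17.8% and 31.2% in control against 40.5% and 44.2% in KD. HSPA13 had 7 higher and 3 lower windows, and its first 1485 bases fell from 68.3% and 58.5% to 51.4% and 45.1%, while bases 3301 to 3500 of the 3′ UTR rose from 2.54% and 4.23% to 6.40% and 10.2%. LIMCH1, a regulator of actomyosin, had 10 higher and 1 lower windows. Its first 4821 bases held 88.1% and 85.0% in control against 81.8% and 79.9% in KD, and bases 6851 to 7600 of its 3′ UTR held 1.89% and 2.69% in control against 4.45% and 5.18% in KD. In all 4 transcripts the share moved out of the coding region and into the 3′ UTR in both KD libraries.

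TMEM189-UBE2V1, a read-through transcript that shares its exons with both of its parent genes, had 1 higher and 15 lower windows, and bases 101 to 850 held 19.4% and 19.7% in control against 6.79% and 5.86% in KD. PSPH, the phosphoserine phosphatase of serine synthesis, held 20.6% and 19.9% of its read starts at bases 701 to 800 in control against 10.8% and 9.28% in KD. These control pairs lay close together and well above the KD pairs. PSPH and CCT6A start next to each other on opposite strands, PSPH on chr7:56078757-56119137 (hg19, minus strand). In UGGT1, the glucosyltransferase of glycoprotein quality control, bases 9351 to 9400 of the 3′ UTR held 0.952% and 1.07% in control against 0.274% and 0.275% in KD (log2 odds -1.87 ± 0.34, limma unadjusted p = 0.000151, adjusted p = 1.00). TXNDC15, a thioredoxin domain protein, held 5.50% and 9.90% at bases 2451 to 3400 in control against 15.7% and 19.3% in KD. PSMB2 held 7.67% and 7.37% at bases 1201 to 2350 in control against 13.4% and 11.01% in KD.

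Among transcripts with a symbol whose groups did not overlap and whose same-numbered pairs moved alike, the largest rise of a single window was in CD47, where bases 3551 to 3600 held 0.244% and 0.0249% in control against 0.643% and 0.586% in KD, on 1 to 46 read starts. This window passed the minimum through its KD libraries, and its rise rests on few read starts in control. In ANKRD20A12P, a pseudogene whose reads can belong to its near-identical relatives, bases 751 to 800 rose from 0.209% and 0.376% to 1.23% and 2.14%. With 17 and 20 read starts in control, this window too passed the minimum through its KD libraries. In ALPK2, an atypical kinase, bases 1 to 50 held 0.753% and 0.488% in control against 0.116% and 0.155% in KD. With 13 and 12 read starts in KD, this window passed the minimum through its control libraries. With all 4 libraries and no replicate term none of these windows was called.

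**Figure D4:**
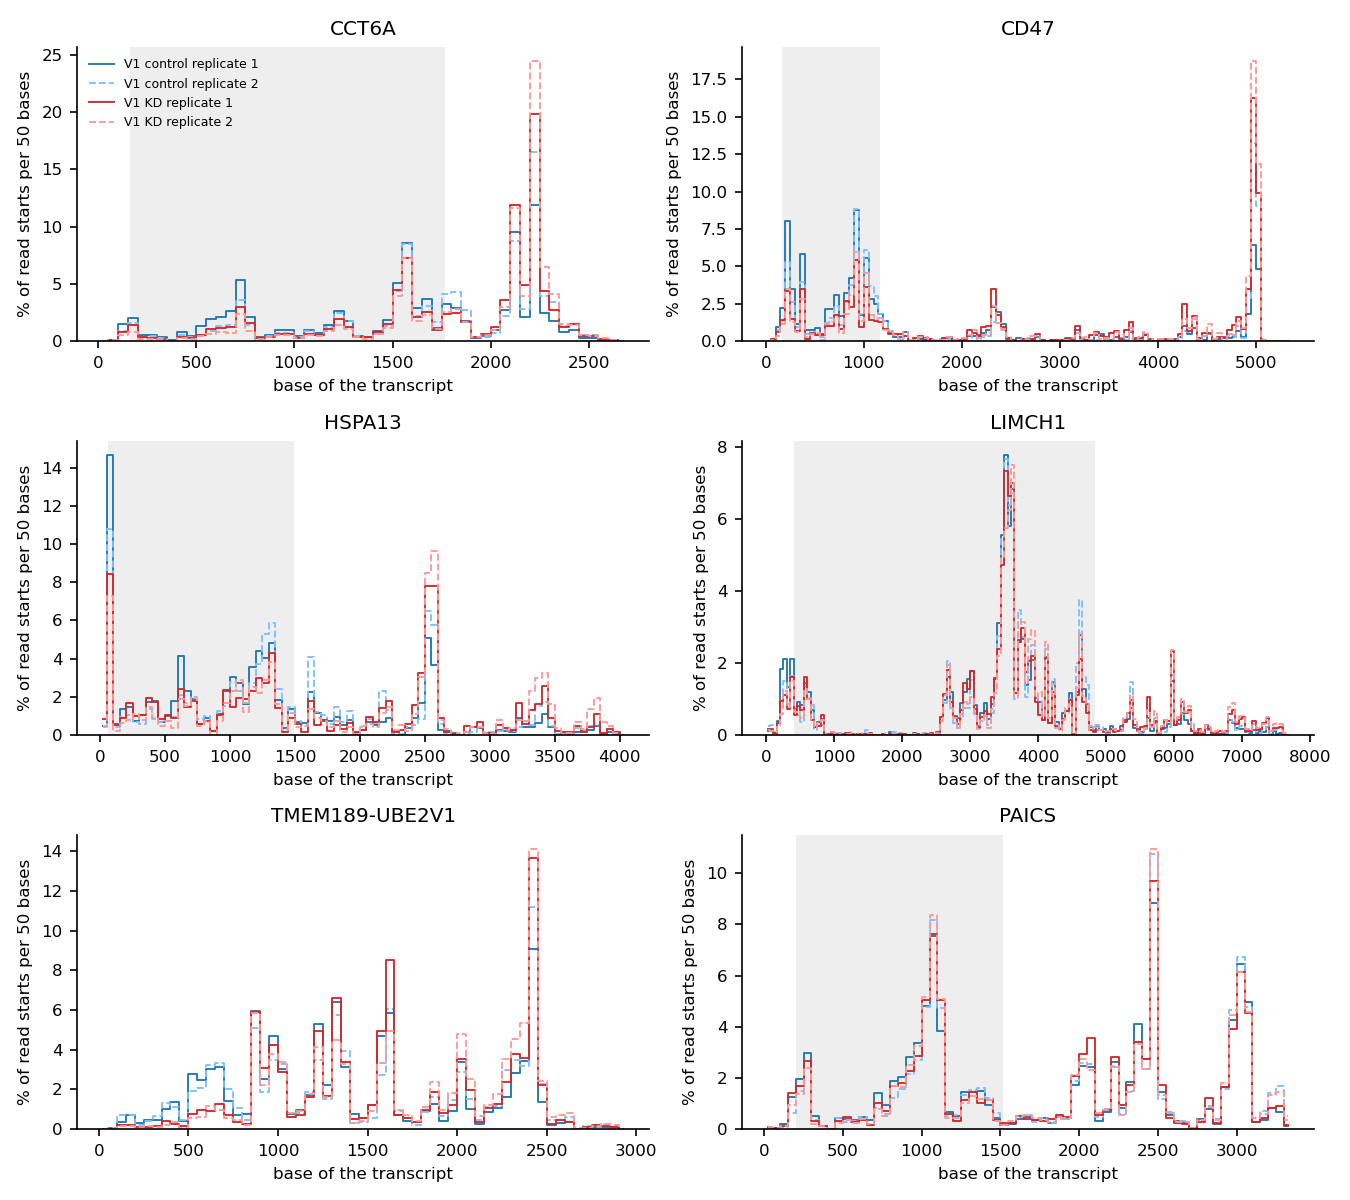
Share of a transcript's V1 read starts (y axis, %) in each window of 50 bases (x axis, base of the transcript) for CCT6A, CD47, HSPA13, LIMCH1, TMEM189-UBE2V1 and PAICS in the 4 V1 libraries, with control in blue, KD in red and replicate 2 dashed. The grey band is the coding region, where it could be placed. In CCT6A and CD47 the red lines are lower over the coding region and higher over the distal 3′ UTR, while the 4 lines of PAICS run together.

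Coding regions and UTRs could be placed for 1367 of the transcripts with a symbol. Over these the median share of V1 read starts in the coding region was 73.4% and 65.3% in control against 70.8% and 65.4% in KD, and in the 3′ UTR 21.2% and 29.8% in control against 23.8% and 30.6% in KD. Per base, read starts were less dense in the 3′ UTR than in the coding region, with a median ratio of 0.418 and 0.690 in control against 0.490 and 0.687 in KD. The 5′ UTR held 1.56% and 1.22% in control against 1.45% and 1.12% in KD. Within codons, the second base took 34.4% and 34.3% of coding read starts in control against 34.2% and 34.4% in KD, and the first base 31.6% and 31.6% in control against 31.7% and 31.6% in KD, so the 4 libraries were alike in this respect.

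The 3′ UTR share was higher in KD in both same-numbered pairs for 629 of 1367 transcripts (46.0%) and lower in both for 122. Both KD libraries were above both control libraries in 105 (7.68%) and below in 20. Among the 18 placed transcripts of the study's list of edited 3′ UTRs, the share was higher in both pairs in 11 (61.1%) and lower in both in 2. Both KD libraries were above both control libraries in 5 (27.8%) and below in 0. The 5 were PIGK, of GPI anchor attachment (17.4% and 26.3% in control, 26.6% and 29.4% in KD), LIMCH1 (11.9% and 15.1% against 18.2% and 20.1%), PGRMC2 (74.9% and 80.7% against 81.1% and 84.9%), SYAP1 (9.93% and 11.1% against 12.3% and 12.2%) and C14orf119 (83.7% and 88.0% against 89.2% and 88.1%). In PIGK, PGRMC2 and C14orf119 the gap between the groups was small beside the difference between the control replicates. F11R, which is on this list, held 75.4% and 81.7% in control against 73.8% and 78.7% in KD. The study's listing of edited 3′ UTRs covers those whose V1 and S1 profiles changed in these same libraries. The shares of the list are thus not independent of its choice. The list is also short, so its share is a description.

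Single bases were compared where they had a mean of at least 50 read starts. Of 195038 such bases, in transcripts with and without a symbol, 0 were called with limma (0%), and 1611 had an unadjusted p under 0.05, or 0.826%. Without V1 control replicates 1 or 2 this share was 1.51% or 3.4%, and without V1 KD replicates 1 or 2 it was 1.98% or 2.57%. With a replicate term in the model, 10 bases were higher and 14 lower. Among transcripts with a symbol, CCT6A held 70 of the 1611 bases among its 347 tested ones, 45 higher and 25 lower. It was followed by HSP90AB1 with 16 of 629, CLTC with 13 of 264, PDHA1 with 9 of 97 and NPM1 with 8 of 530. HSP90AB1 and NPM1 have many processed pseudogenes, and their reads can be shared with these. Bases that could be placed on the genome are shown, at most 1 per transcript and direction, from the 3 largest rises and falls and from the transcripts with most such bases, beside the base of F11R and of PAICS with the highest mean share over the 4 libraries. Other bases of CCT6A near base 2204 changed nearly as much and are left out, as are the placed bases of HSP90AB1, whose reads can be shared, and the base of PDHA1 that fell. Each sequence is 30 bases of the GENCODE v44 transcript (GRCh37), and the capital is the base at which the reads start.
CCT6A base 2204: aatattgaaagcatcCctgttggtataaat
CCT6A base 1674: tgtgtaaagaaacagCttcttcactcctgc
PDHA1 base 915: ggaaattaccttgtaTtttcatctgtgaga
MYL9 base 373: tgttcctcaccatgtTtggggagaagctga
PSPH base 758: cagagctgaggaagcTtttctactcagcag
ITGAV base 1891: caaaagggagcaattCgacgagcactgttt
F11R base 3202: atccaactagacaaaTaaagtagagcttat
PAICS base 3026: ccacacattggtaccTttagttctctgaag

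Base 2204 of CCT6A, in the last exon and the 3′ UTR (chr7:56131207-56131236, plus strand), took 0.0473% and 0.0556% of the transcript's read starts in control against 0.230% and 0.156% in KD, on 28, 35, 258 and 160 read starts (log2 odds 1.86 ± 0.35, limma unadjusted p = 0.000338, adjusted p = 1.00). It rose within a stretch that rose as a whole. Base 1674 of the same transcript, in the coding part of exon 13, took 0.117% and 0.138% in control against 0.0409% and 0.0486% in KD. With 46 and 50 read starts in KD, it passed the minimum through its control libraries. Base 915 of PDHA1, a pyruvate dehydrogenase subunit, lies in the coding part of exon 8 (chrX:19373504-19373533, plus strand) and took 0.612% and 0.680% in control against 2.11% and 1.36% in KD, with a log2 odds difference of 1.41 ± 0.32 (limma unadjusted p = 0.0012). The window around it, bases 901 to 950, held 9.76% and 10.1% in control against 18.4% and 13.1% in KD.

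Base 373 of MYL9, a myosin light chain, lies in the coding part of exon 3 (chr20:35176504-35176533, plus strand). It took 0.468% and 0.267% in control against 1.90% and 0.649% in KD, so the 2 KD libraries were far apart. Control counts of 22 and 17 were well under the required mean of 50, and KD counts of 159 and 50 let this base in. Base 758 of PSPH, in the coding part of exon 4 (chr7:56088863-56088892, minus strand), took 2.28% and 1.81% in control against 0.633% and 0.577% in KD (log2 odds -1.76 ± 0.36, limma unadjusted p = 0.000561). Base 1891 of ITGAV, an integrin subunit, in the coding part of exon 17 (chr2:187521009-187521038, plus strand), took 0.484% and 0.356% in control against 0.266% and 0.0648% in KD. It had 54 and 7 read starts in KD and passed the minimum through its control libraries. Base 550 of TMEM189-UBE2V1, which could not be placed, fell from 1.80% and 1.06% to 0.370% and 0.325%. It had 59 and 36 read starts in KD and passed the minimum through its control libraries. Base 1074 of RPL37, a ribosomal protein, rose from 0.0046% and 0.00682% to 0.0129% and 0.0285%. With 13 and 21 read starts in control, it passed through its KD libraries.

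The V1 base of PAICS with the highest mean share, base 3026 of its 3′ UTR (chr4:57327206-57327235, plus strand), took 3.59% and 3.80% in control against 3.36% and 3.30% in KD. Base 3202 in the 3′ UTR of F11R (chr1:160966615-160966644, minus strand) took 2.40% and 2.16% in control against 1.21% and 1.23% in KD, with a log2 odds difference of -0.91 ± 0.32 (limma unadjusted p = 0.0159), while the window of bases 3201 to 3250 held 6.26% and 5.72% in control against 3.84% and 3.11% in KD. The 3′ UTR of PAICS as a whole held 55.2% and 59.1% in control against 57.9% and 58.4% in KD, with overlapping groups.

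The bases around V1 read starts were alike in the 4 libraries. The base before the read start was C in 37.02% and 36.8% of weighted read starts in control and in 36.8% to 36.9% in KD, against 23.7% of all bases of the placed transcripts. The base at the read start was G in 15.9% to 16.1% in control and 15.8% to 16.03% in KD, against 25.1% of all bases, and U in 31.1% to 31.4% and 31.2% to 31.6%. These transcripts were placed by the base composition around their read starts, so their departure from the overall composition is in part set by the placing.

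**Figure D5:**
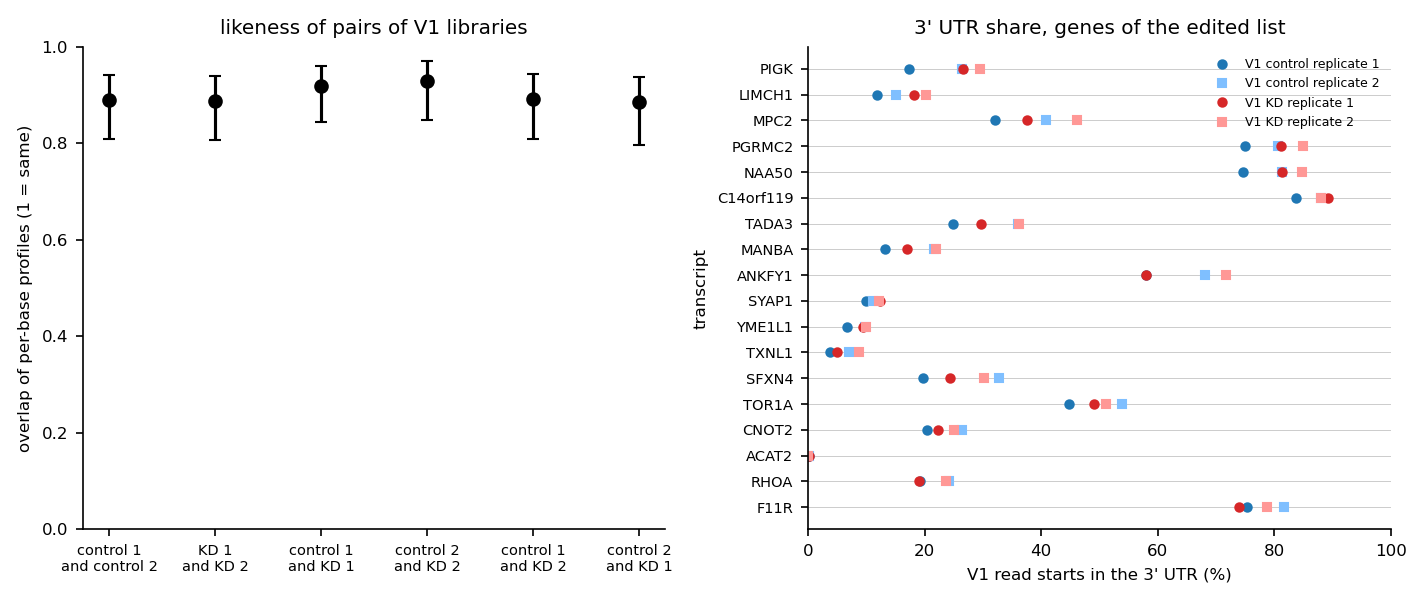
Left, the overlap of per-base V1 profiles (y axis, 1 = same profile) for the 6 pairs of libraries, with points for the median and bars for the quartiles over 10305 transcripts. Right, the share of V1 read starts in the 3′ UTR (x axis, %) for the 18 placed transcripts of the edited list, with control in blue, KD in red and squares for replicate 2. The pairs that share a replicate number have the highest medians, 0.920 and 0.930, and on the right PIGK, LIMCH1, PGRMC2, SYAP1 and C14orf119 have both red points to the right of both blue ones.

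Whole profiles were compared by their overlap, a measure that is 1 when 2 libraries draw from the same distribution over bases. The median over transcripts was 0.891 for the 2 control libraries and 0.888 for the 2 KD libraries. Between conditions it was 0.920 for the replicate 1 libraries and 0.930 for the replicate 2 libraries, and 0.891 and 0.885 for control 1 with KD 2 and control 2 with KD 1. Libraries of the same number but different condition were thus more alike than libraries of the same condition. Leaving out the 5 most covered bases of each transcript gave 0.837 and 0.831 within conditions and 0.867 and 0.872 between same-numbered libraries, in the same order.

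The V1 differences were last set beside those of S1 in the 4553 transcripts with at least 257 read starts in all 8 libraries. A limma test of the difference between the 2 nucleases called 0 transcripts (0%) for read starts, mean position and bases reached, and at an unadjusted p under 0.05 it had 22 (0.483%), 4 (0.0879%) and 291 (6.39%) transcripts. The 291 were mostly transcripts that reached more bases with V1 than with S1 in KD relative to control, 282 against 9. The counts moved with single libraries, to 130 against 5 without V1 control replicate 2, 127 against 4 without V1 KD replicate 1, 186 against 9 without V1 KD replicate 2, 299 against 81 without S1 control replicate 2, 217 against 39 without S1 KD replicate 1 and 521 against 15 without S1 KD replicate 2. These values were scaled by TMM over the 4553 transcripts and 8 libraries, so that V1 differences in read starts depart a little from those above. CDKN1A fell by 2.94 on the log2 scale with V1 and by 2.75 with S1, AKR1B1 by 2.79 and 2.77, and YWHAH rose by 2.30 and 2.34. The mean position of CD47 moved by 16.2 points with V1 and by 25.2 with S1, that of HSPA13 by 9.73 and 9.80, that of CCT6A by 7.31 and 7.41 and that of TMEM189-UBE2V1 by 7.47 and 6.44. For PSMB10 it moved by 11.2 and 10.5 points. The V1 and S1 shifts of these transcripts had the same sign. For CD47 the difference between the nucleases in mean position was -9.06 ± 7.44 points (limma adjusted p = 1.00).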

How the data were processed

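Per-base tables of 8 PARS-seq libraries, 4 of them V1, and 1 RPKM table were used. Per the labels, reads were trimmed with cutadapt and aligned with Bowtie2 to hg19/GRCh37, with no versions given in the sources used here. The authors deposited, for each UCSC knownCanonical transcript, the number of uniquely aligned reads that start at each base, whole numbers without normalization. The authors also deposited RPKM values per gene, in which the PARS-seq columns are means over an S1 and a V1 library. RPKM values give no depth, and none was used for them here.

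Read starts were summed per transcript, scaled by TMM and log2-transformed after adding 0.5 and tested with limma 3.58.1 (R 4.3.3), using a trend in the mean. The design had this test, since each cell holds a string of numbers per base and count models were not used. Mean position, bases reached in draws of equal size, and log2 odds of windows of 50 bases (mean of at least 20 read starts, at least 3 windows per transcript) and of bases (mean of at least 50) were tested in the same way. Adjusted p-values are Benjamini-Hochberg, over all features tested, with a threshold of 0.05. Differences in RPKM used log2 (RPKM + 1). Reads carry no molecular identifiers, so depth stands for counting error only. PCR copies of 1 fragment count as separate read starts.

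Symbols came from the study's supplementary list, of which 1997 transcripts were at hand. Their profiles were placed on GENCODE v44 transcripts (GRCh37) by the base composition around read starts, which placed 1447 of the 1838 with a transcript of that symbol. Of 34 transcripts with identical lengths, 28 were best at offset 0, and 95.8% of segments had their best match at the placing. Sequences are those of the reference.

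Named were F11R, PSMB2 and PAICS, the 3 largest rises and falls per measure among transcripts with a symbol (called where any were, groups not overlapping and both same-numbered pairs moving alike), the 5 transcripts with most windows or bases, the called members of the lists and at most 2 identifiers without a symbol per direction. The members and lists were chosen with earlier results of these data known. Each test was tried on simulated data, except the V1 against S1 tests of mean position and of bases reached. Alternatives covered scaling, minimum, trend, rarefaction, window size, ends, most covered bases, left-out libraries and a replicate block.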

Additional observations from a re-analysis of the deposited data

How the results depend on the processing

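Read starts per transcript gave 152 higher transcripts with the library total, and 453 lower ones with more than 1000 read starts in each library, where 7221 were tested in place of 10305. Leaving out 1 library at a time gave 422 to 1135 higher and 499 to 1191 lower transcripts, 0 to 11 and 0 to 1 for mean position, 0 to 2 and 1 to 4 for bases reached, 1 to 106 and 1 to 15 for windows, and 0 to 41 and 0 to 20 for bases. The lone library of a group was then assumed to vary like the others. The highest counts came without V1 control replicate 2 for read starts, mean position and windows, and without V1 KD replicate 2 for bases. The cause was not tested. Bases reached had 15 higher and 23 lower transcripts when rarefied to the smallest library, and 0 lower with the inverse Simpson index, without the most covered base, above 1000 read starts or with no trend. Windows had 1 higher with a mean of at least 5 read starts and 1 with 5 added.

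Same-numbered libraries shared deviations from their group means, with a correlation of 0.677 for read starts, 0.715 for mean position, 0.513 for bases reached, 0.450 for windows and 0.480 for bases, but with 2 pairs and no label that the number marks a batch they were taken to share only a number. With the replicate block, read starts had 2664 higher and 2443 lower transcripts, mean position 80 and 10, bases reached 40 and 42, windows 497 and 282, bases 10 and 14, and the V1 against S1 test of bases reached 72 and 1. Of the transcripts named for mean position, the block called CD47, PSMB10, HSPA13, uc010buo.1, uc003ivc.2, uc001utu.3 and uc021omd.1 (limma adjusted p from 0.00238 to 0.0359). For bases reached it called SLC25A37, UBE2L3, PSMB2, uc001utu.3, uc002mds.4 and uc003hic.2 (1.1e-05 to 0.031), for read starts PSMB2 (0.000349), for windows those given for ANKRD20A12P, ALPK2 and UGGT1 and 1 window each of TXNDC15 and TMEM189-UBE2V1 (1.63e-07 to 0.00744), and for bases CCT6A 2204, PSPH 758 and TMEM189-UBE2V1 550 (0.013 to 0.0464). Of these, the windows of ANKRD20A12P and TXNDC15 and base 2204 of CCT6A passed their minimum through the KD libraries. The windows of ALPK2 and TMEM189-UBE2V1 and base 550 of the latter passed it through the control libraries. Such calls rest in part on the group that let the window or base in. A block with 2 pairs has few degrees of freedom.

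Values of F11R and PAICS near 0 changed sign. PAICS read starts were at -0.077 with the library total, and F11R read starts were at 0.013 without the most covered transcript and between -0.109 and 0.021 when 1 library was left out. Mean position then lay between -3.94 and 0.186 points for F11R and between -1.43 and 1.62 for PAICS. Log2 bases reached were at -0.011 for F11R and 0.0051 for PAICS when rarefied to the smallest library, and for PAICS at 0.039 with the Simpson index and between -0.012 and 0.0060 when 1 library was left out. Of the other values for named transcripts under the alternatives, 680 kept direction and side of the threshold, 40 were no longer past it and 34 came to pass it.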
